A study of Mus musculus with 12 samples.

Results

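The interleukin 1 receptor gene cluster of the mouse is a run of 6 genes on chromosome 1, Il1r2, Il1r1, Il1rl2, Il1rl1, Il18r1 and Il18rap. Its chromatin was described here from ATAC-seq peaks that overlapped the span of any of the 6 genes or the 50 kb on either side of it, out of 21883 protein-coding genes in the gene table used. These windows joined into 1 stretch of 567 kb, chr1:40034692-40601707 on build mm10 (GRCm38). Peaks of the 12 libraries merged into 55 regions there, out of 56682 in the genome, and 37 of the 55 had a peak in at least 2 libraries, out of 37113. The members were chosen by gene name and position, with earlier results of these data known.

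The 4 groups had 3 libraries each and were named sgB2/T618I, sgNT/T618I, sgB2/Empty and sgNT/Empty. All were HoxB8 cells, a mouse bone marrow line immortalised by the transcription factor Hoxb8 and grown with stem cell factor and estrogen, and all were collected 48 h after estrogen had been withdrawn, which allows such cells to mature. The guide sgB2 was directed at Asxl1, a chromatin regulator, to truncate it, and sgNT was a guide without a target. The vector pMICH either expressed CSF3R T618I, a mutant receptor of granulocyte colony-stimulating factor (G-CSF), or was empty. Whether replicate libraries are separate cultures, and whether a group was 1 clone, is not in the labels, so p-values measure no more than the spread between these libraries. Peak lists cannot show the truncation of Asxl1 or the expression of the transgene.

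Receptors of this family sit in the cell membrane and signal, after binding a cytokine, through an intracellular domain shared with Toll-like receptors, the adaptor Myd88 and Irak kinases, which leads to NF-kB. Il1r1 binds interleukin 1 and signals, while Il1r2 binds the same cytokine without signalling and so acts as a decoy, a role described in neutrophils. Il1rl2 is the receptor for interleukin 36, Il1rl1 (ST2) the receptor for interleukin 33, best known from mast cells and type 2 lymphocytes, and Il18r1 with its accessory chain Il18rap forms the receptor for interleukin 18.

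The lists held 23695 to 32975 peaks in sgB2/T618I, 26112 to 29642 in sgNT/T618I, 20293 to 25891 in sgB2/Empty and 18484 to 29699 in sgNT/Empty libraries, and covered 9.23 to 17.9 Mb. Sequencing depth is unknown, because the lists carry no read counts. The shortest list, sgNT/Empty replicate 1, also had the fewest peaks in the cluster, 7. Of 9 neutrophil and promyelocyte genes with a promoter in the table, Mpo, S100a8 and Csf3r had a promoter peak in all 12 libraries, S100a9 in 11, Ltf in 6, Retnlg in 4, Cd177 and Elane in 1 and Prtn3 in 0. No promoter peak was called at 8 of 9 T, NK and innate lymphoid marker genes or at 3 of 3 B cell marker genes with a promoter in the table, and the exception, Il7r, had one in 2 sgB2/T618I libraries.

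Promoters of 3 members are shown, those of the decoy receptor and the accessory chain, with a peak in every library, and that of the interleukin 33 receptor, with a peak in 4 libraries, all T618I. The 250 bases before the annotated start are given from RefSeq on GRCm38.p6, plus strand, for Il1r2 (chr1:40085843-40086092), the distal start of Il1rl1 (chr1:40429320-40429569) and Il18rap (chr1:40515112-40515361), with capitals marking the motif letters found.
Il1r2: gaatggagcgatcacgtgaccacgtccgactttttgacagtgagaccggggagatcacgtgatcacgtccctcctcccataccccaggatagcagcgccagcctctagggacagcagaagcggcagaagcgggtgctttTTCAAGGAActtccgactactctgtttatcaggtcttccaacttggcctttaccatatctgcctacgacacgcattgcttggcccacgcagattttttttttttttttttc
Il1rl1: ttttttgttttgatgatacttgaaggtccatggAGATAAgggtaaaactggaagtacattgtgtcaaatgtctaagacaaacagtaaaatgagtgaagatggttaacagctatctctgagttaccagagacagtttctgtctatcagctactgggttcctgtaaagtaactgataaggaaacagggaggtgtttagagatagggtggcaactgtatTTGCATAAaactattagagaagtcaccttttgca
Il18rap: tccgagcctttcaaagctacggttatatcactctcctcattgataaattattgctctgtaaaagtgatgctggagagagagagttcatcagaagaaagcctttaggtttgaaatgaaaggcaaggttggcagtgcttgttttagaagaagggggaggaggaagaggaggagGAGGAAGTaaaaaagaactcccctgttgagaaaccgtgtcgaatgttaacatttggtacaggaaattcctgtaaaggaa
The letters searched on both strands were TTGCNNAA (C/EBP), TGANTCA (AP-1), GAGGAAGT (PU.1), and TTCNNNGAA (STAT), with the NF-kB motif. For GATA the letters were AGATAA. No printed match overlaps another. The Il1r2 promoter held TTCAAGGAA at -111 to -103 from the start, letters found in 7.02% of the 32851 promoters of the same length. The distal Il1rl1 promoter held TTGCATAA at -34 to -27 (9.56% of promoters hold these C/EBP letters) and AGATAA at -217 to -212 (9.99%). The Il18rap promoter held GAGGAAGT at -79 to -72 (2.44%). These are matches of letters, not measured binding. The windows of Il1r2 and of Il1rl1 lie inside the spans that the gene table gives for those genes.

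A peak overlapped the Il1r2 promoter in all 12 libraries, in the region chr1:40084527-40086108. It covered 719, 761 and 630 bp in sgB2/T618I, 836, 1441 and 725 bp in sgNT/T618I, 497, 301 and 502 bp in sgB2/Empty, and 302, 518 and 1504 bp in sgNT/Empty libraries. Ranked by p-value within its own list, where 100 is the smallest p, it stood at percentile 61.8 to 88.5 in the 6 T618I libraries and 20.2 to 34.2 in the 6 Empty libraries. The lists differ in length, so these ranks are given as a description only. The Il18rap promoter also had a peak in all 12 libraries (chr1:40514817-40516714), at percentile 50.8 to 78.4 in T618I and 42.9 to 87.6 in Empty libraries, which overlap.

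The distal Il1rl1 promoter had a peak (chr1:40429092-40429537) in 3 of 3 sgB2/T618I, 1 of 3 sgNT/T618I, 0 of 3 sgB2/Empty and 0 of 3 sgNT/Empty libraries. The gene span of Il1rl1 begins 24.8 kb before that, within another region (chr1:40404522-40405058). This region had a peak in 3 sgB2/T618I, 3 sgNT/T618I, 3 sgB2/Empty and 2 sgNT/Empty libraries. At the proximal start of Il1rl1 no peak was called in any library, and the same was true of the Il1rl2 promoter. The Il18r1 promoters, which share 1 region (chr1:40465519-40466014), had a peak in 1 sgB2/T618I, 3 sgNT/T618I, 0 sgB2/Empty and 1 sgNT/Empty library. Promoters of Il1r1 had a peak in 1, 1, 2 and 1 library of those groups at its first start (chr1:40224708-40225073), and in 0, 1, 0 and 0 at a later start. The wider region that reaches this later start (chr1:40265193-40266751) had a peak in 2, 2, 1 and 1. A missing peak means that none was called at the unknown depth of that library, not that the site was closed.

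Across the whole cluster, T618I libraries had more peaks than Empty libraries. There were 29, 37 and 27 peaks in sgB2/T618I, 26, 23 and 23 in sgNT/T618I, 14, 19 and 18 in sgB2/Empty and 7, 18 and 19 in sgNT/Empty libraries, and T618I and Empty libraries did not overlap. Scaled to equal total covered length per library, the peaks covered 14.6 ± 0.41 kb in sgB2/T618I, 11.3 ± 0.31 kb in sgNT/T618I, 7.40 ± 0.79 kb in sgB2/Empty and 5.77 ± 1.99 kb in sgNT/Empty (SD, n = 3 each). Of the 37 regions, 18 were found in all 3 libraries of sgB2/T618I, 15 of sgNT/T618I, 10 of sgB2/Empty and 7 of sgNT/Empty. The matching shares of all regions were not counted and the lists differ in length, so these counts are a description only.

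**Figure D1:**
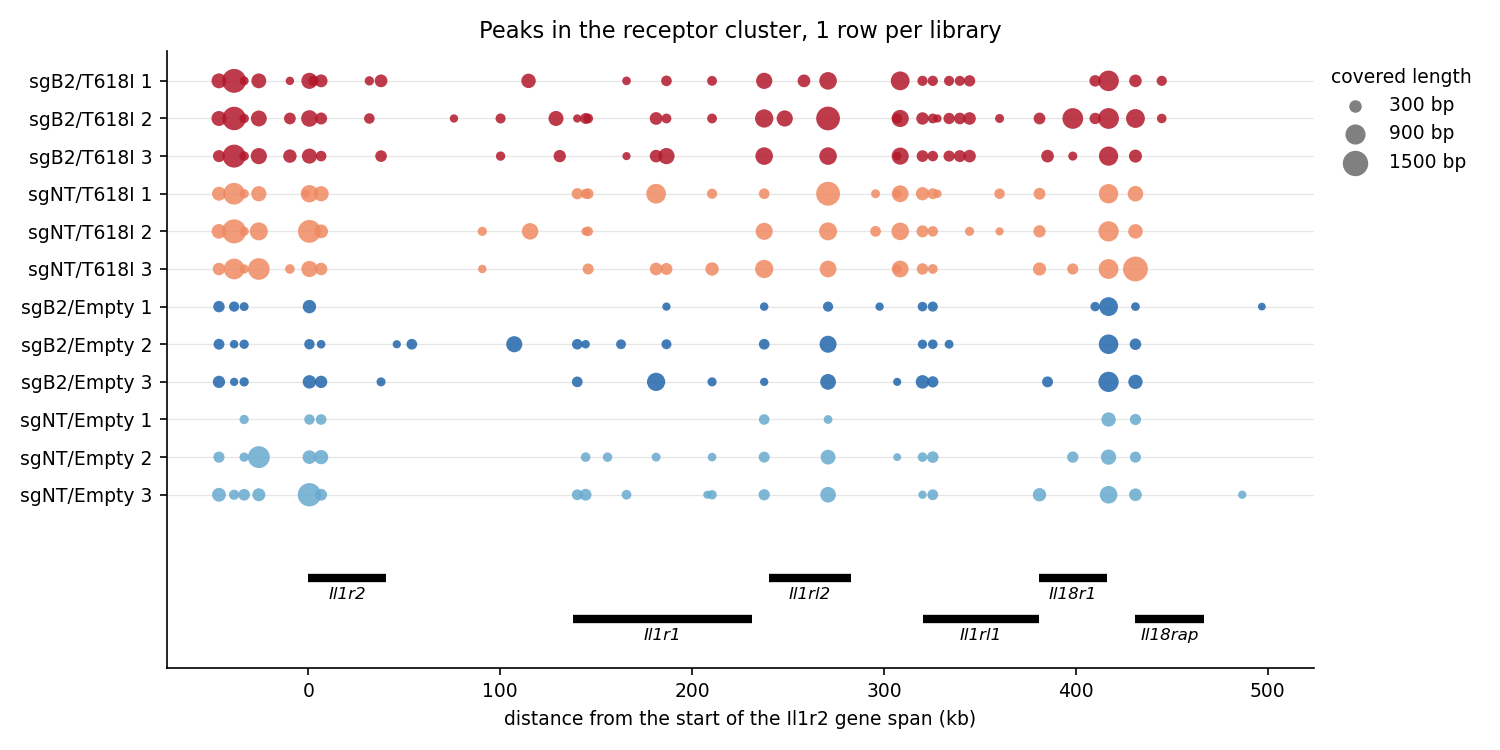
Peaks of the receptor cluster in each library. The x axis is the distance from the start of the Il1r2 gene span in kb, each row is 1 library, each point is 1 region with its area proportional to the length covered by peaks in that library, and black bars are the gene spans. T618I rows hold 23 to 37 peaks and Empty rows 7 to 19.

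For the test, the scaled covered length in each gene's span ± 50 kb was taken as log2 after adding 500 bp, and the 15282 genes whose mean reached 500 bp were fitted with limma. A gene is said to have risen or fallen where the Benjamini-Hochberg adjusted p was below 0.05. T618I effects are means over both guides and guide effects means over both vectors. All 6 members were tested. With T618I, 5 of 6 members rose and 0 fell, against 4.05% of all tested genes that rose and 2.41% that fell, and the median of the 6 changes was 0.82 (log2) against -0.05 over all tested genes. Windows of neighbouring members overlap, so the 6 changes are not independent. Every base covered by peaks in the windows of Il1rl2, Il1rl1 and Il18r1 also lay in the window of another member, as did 56.0% of that of Il1r1 and 98.6% of that of Il18rap, but only 0.019% of that of Il1r2.

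The decoy receptor Il1r2 had a scaled covered length of 5.64, 4.01 and 5.18 kb in the sgB2/T618I libraries, of 3.65, 4.68 and 3.96 kb in the sgNT/T618I, of 2.03, 2.05 and 2.12 kb in the sgB2/Empty and of 1.30, 2.90 and 2.95 kb in the sgNT/Empty libraries. All 6 T618I libraries were above all 6 Empty libraries, a separation upward that 1.65% of tested genes showed. The T618I effect was 0.90 ± 0.14 (SE, log2) with a limma adjusted p of 0.00142.

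Most of the length gained at Il1r2 lay before the gene. In the 50 kb upstream of its span, T618I libraries averaged 3.17 kb and Empty libraries 1.16 kb, without overlap, while inside the gene span they averaged 1.33 and 0.97 kb, with overlap. This upstream stretch made up 31.5% of the difference over the whole cluster. A region there, chr1:40045257-40046902, was covered for 1580, 1520 and 1459 bp in sgB2/T618I, 1301, 1592 and 1186 bp in sgNT/T618I, 291, 200 and 191 bp in sgB2/Empty and 0, 0 and 290 bp in sgNT/Empty libraries. The T618I libraries thus held a broad peak where Empty libraries held a narrow one or none. The next region, chr1:40057948-40059956, had a peak in 3, 3, 0 and 2 libraries of sgB2/T618I, sgNT/T618I, sgB2/Empty and sgNT/Empty, and one farther on, chr1:40074864-40075409, in 3, 1, 0 and 0. By contrast, the narrow region chr1:40051103-40051500 between them had a peak in all 12 libraries, at percentile 80.2 to 97.9 of its list.

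The signalling interleukin 1 receptor, Il1r1, had a scaled covered length of 3.54, 4.60 and 4.14 kb in the sgB2/T618I libraries, of 3.49, 2.78 and 3.09 kb in the sgNT/T618I, of 1.0, 3.32 and 2.49 kb in the sgB2/Empty and of 0.79, 1.81 and 2.02 kb in the sgNT/Empty libraries. T618I and Empty libraries overlapped through sgB2/Empty replicate 2. The T618I effect was 0.85 ± 0.20 (SE, log2; limma adjusted p = 0.0171), and Il1r1 was the member whose call ended most often under other settings. A region in the gene, chr1:40230359-40230723, had a peak in 1 sgB2/T618I, 3 sgNT/T618I, 0 sgB2/Empty and 0 sgNT/Empty libraries.

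The interleukin 36 receptor Il1rl2 had a scaled covered length of 4.03, 4.27 and 3.79 kb in the sgB2/T618I libraries, of 3.66, 3.17 and 3.31 kb in the sgNT/T618I, of 1.80, 1.85 and 2.28 kb in the sgB2/Empty and of 0.79, 1.89 and 1.64 kb in the sgNT/Empty libraries. T618I and Empty libraries did not overlap. Its T618I effect, 0.96 ± 0.13 (SE, log2; limma adjusted p = 0.000397), was the largest of the 6. With no promoter peak in any library, its covered length came from regions such as chr1:40321787-40322809, 2.29 kb before the start, and chr1:40354773-40356397, inside the gene, both with a peak in all 12 libraries.

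The interleukin 33 receptor Il1rl1 had a scaled covered length of 5.29, 6.69 and 6.40 kb in the sgB2/T618I libraries, of 4.82, 4.45 and 4.16 kb in the sgNT/T618I, of 3.59, 3.32 and 3.73 kb in the sgB2/Empty and of 1.67, 2.65 and 2.45 kb in the sgNT/Empty libraries. The groups stood in this order without overlap between neighbours. Its T618I effect was 0.79 ± 0.10 (SE, log2) with a limma adjusted p of 0.00022. When the window was cut to the gene span, it was the only member tested there whose rise passed (0.79). Il18r1 and Il18rap fell below the coverage minimum in their gene spans and were not tested there.

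Between Il1rl2 and Il1rl1, T618I and Empty libraries again did not overlap, with 1.22 kb on average in T618I and 0.28 kb in Empty libraries. The region chr1:40392661-40393676, 36.4 kb before the distal start of Il1rl1, had a peak in 6 of 6 T618I and 0 of 6 Empty libraries, as 0.684% of the 37113 regions did. It covered 978, 818 and 811 bp in sgB2/T618I and 781, 854 and 781 bp in sgNT/T618I libraries. Its exact test, stratified by guide and two-sided, gave p = 0.005, the smallest that the 400 arrangements allow, and an adjusted p of 0.649 over all regions. Among peaks with a −log10 q of at least 4 it was in 5 T618I and 0 Empty libraries, and in lists trimmed to equal length in 2 and 0. In no region of the genome did this exact test pass after adjustment, for either factor. With a smallest p of 0.005 over 37113 regions, a region could pass only if very many others reached that p too. The adjusted p therefore cannot tell whether this single region differs. Unadjusted, 971 regions had a p below 0.05 for T618I and 355 for the guide in this exact test.

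The interleukin 18 receptor Il18r1 had a scaled covered length of 3.32, 4.49 and 3.73 kb in the sgB2/T618I libraries, of 2.00, 2.26 and 3.13 kb in the sgNT/T618I, of 2.12, 1.89 and 2.16 kb in the sgB2/Empty and of 1.39, 1.30 and 1.5 kb in the sgNT/Empty libraries. Values of sgNT/T618I and sgB2/Empty overlapped. The T618I effect was 0.69 ± 0.11 (SE, log2; limma adjusted p = 0.00133). Its accessory chain Il18rap had a scaled covered length of 2.36, 3.40 and 2.42 kb in the sgB2/T618I libraries, of 1.74, 1.89 and 3.13 kb in the sgNT/T618I, of 2.37, 1.64 and 2.16 kb in the sgB2/Empty and of 1.39, 1.30 and 1.66 kb in the sgNT/Empty libraries. These groups overlapped, and the T618I effect of 0.40 ± 0.13 (SE, log2) did not pass (limma adjusted p = 0.085). A region between these genes, chr1:40501110-40502388, had a peak in all 12 libraries, and the stretch between them averaged 1.29 kb in T618I and 1.30 kb in Empty libraries.

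**Figure D2:**
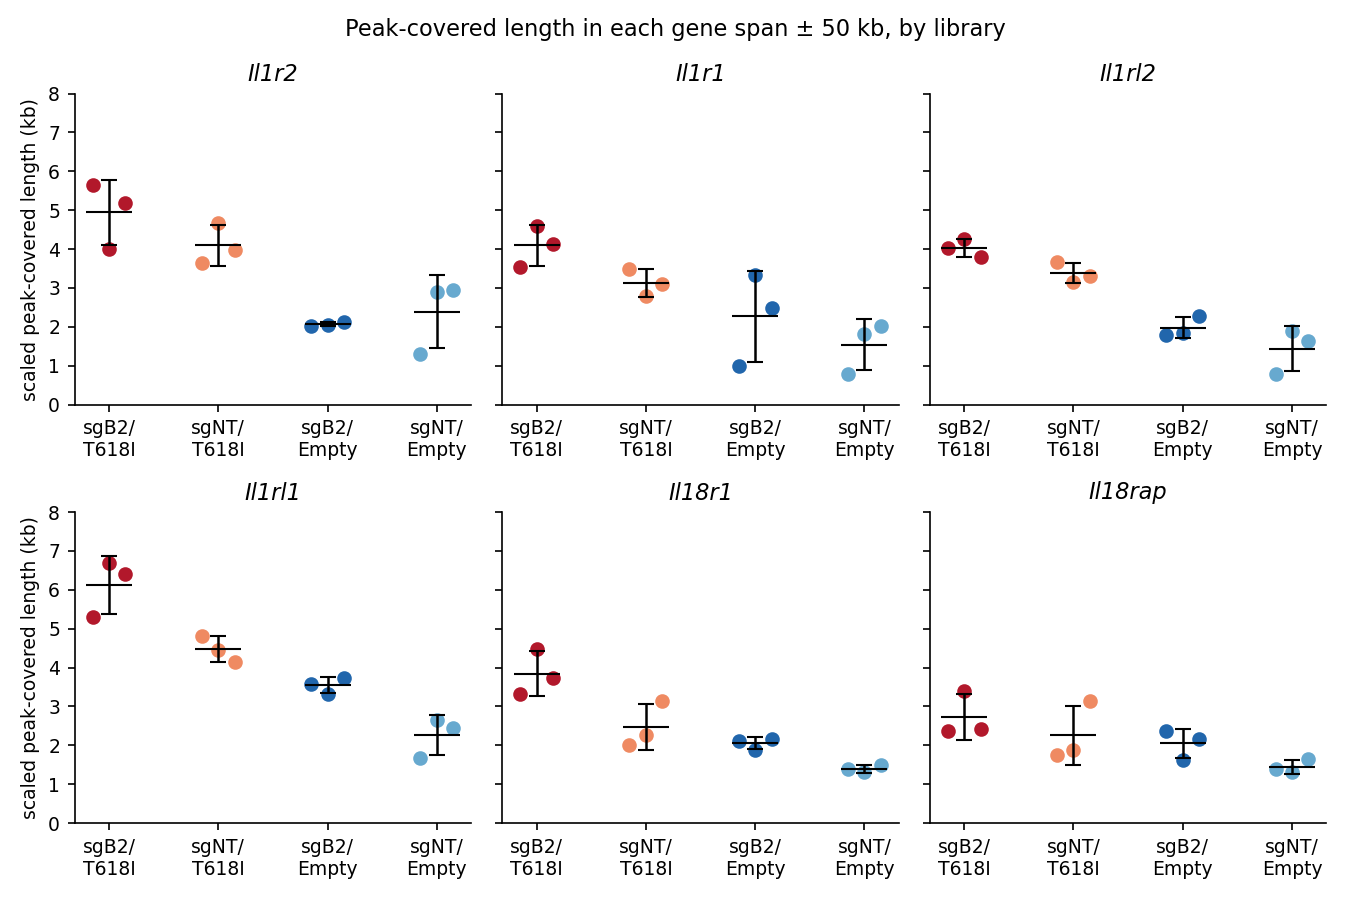
Scaled peak-covered length (kb) in the span ± 50 kb of each member, with 1 point per library, the mean as a bar and the SD (n = 3) as whiskers, for the 4 groups. Il1r2, Il1rl2 and Il1rl1 are separated between T618I and Empty libraries, while Il18rap overlaps.

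Over the 37 regions, 28 had a peak in more T618I than Empty libraries, 1 in fewer and 8 in as many, that is 75.7% with more, against 35.6% of all regions. Only 6 of the 37 (16.2%) had a peak in all 12 libraries, against 36.0% of all regions. Within sgNT cells, 2 regions had a peak in all T618I and no Empty libraries, the one 36.4 kb before Il1rl1 and the one in Il1r1 given above, and 3.24% of all regions did so. Within sgB2 cells there were 5, against 3.24% of all regions. These were the region before Il1rl1, the pair upstream of Il1r2 at chr1:40057948-40059956 and chr1:40074864-40075409, the distal Il1rl1 promoter and chr1:40424015-40424485 inside Il1rl1. In equal-length lists 0 regions of the cluster met this rule in either guide, and 1 met its reverse in sgNT cells. That region, chr1:40091081-40091744 inside Il1r2, was there in 0 sgNT/T618I and 3 sgNT/Empty libraries. Genome-wide, of 20791 regions in at least 2 equal-length lists, 271 met the rule in sgNT and 267 in sgB2 cells, and 607 and 1031 met its reverse. Among peaks with a −log10 q of at least 4, chr1:40074864-40075409 and the distal Il1rl1 promoter were in 0 libraries.

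In each guide separately, 3 members rose with T618I in sgNT cells, against 1.16% of tested genes, and 4 in sgB2 cells, against 1.21%. In sgNT cells these were Il1rl2 (1.05 ± 0.18, SE, log2; limma adjusted p = 0.00729), Il1rl1 (0.87 ± 0.14; limma adjusted p = 0.00413) and Il18r1 (0.63 ± 0.15; limma adjusted p = 0.0498). In sgB2 cells they were Il1r2 (1.07 ± 0.20; limma adjusted p = 0.0132), Il1rl2 (0.87 ± 0.18; limma adjusted p = 0.0231), Il1rl1 (0.71 ± 0.14; limma adjusted p = 0.0179) and Il18r1 (0.76 ± 0.15; limma adjusted p = 0.0181). The call of Il18r1 in sgNT cells was lost in 11 of the 12 fits that left out 1 library, the exception being the one without sgB2/T618I replicate 2. The 4 calls in sgB2 cells became 0 without sgB2/Empty replicate 1 or sgB2/T618I replicate 3, 1 without sgB2/Empty replicate 2 or sgB2/T618I replicate 2, and 2 without sgB2/T618I replicate 1. The interaction, that is the T618I change of sgB2 cells minus that of sgNT cells, passed in 0 of 6 members (limma), as it did in 0% of tested genes upward, ranging from -0.17 ± 0.26 for Il1rl2 to 0.34 ± 0.28 for Il1r2 (SE, log2), and the unadjusted p was below 0.05 in 0 members, against 4.91% of tested genes.

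The T618I calls changed with the trimming of the lists and with the width of the window. When each list was trimmed to its strongest peaks so that all lists covered equal length, 0 of 6 members rose, with changes of 0.63 (Il1r2), 0.05 (Il1r1), 0.56 (Il1rl2), 0.46 (Il1rl1), 0.33 (Il18r1) and 0.23 (Il18rap), although 513 genes still rose in that fit. In a 10 kb window 2 members rose, Il1rl2 (0.72) and Il1rl1 (0.88). The T618I effect rested on no single library: 5 of 6 members rose in each of the 12 fits without 1 library.

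**Figure D3:**
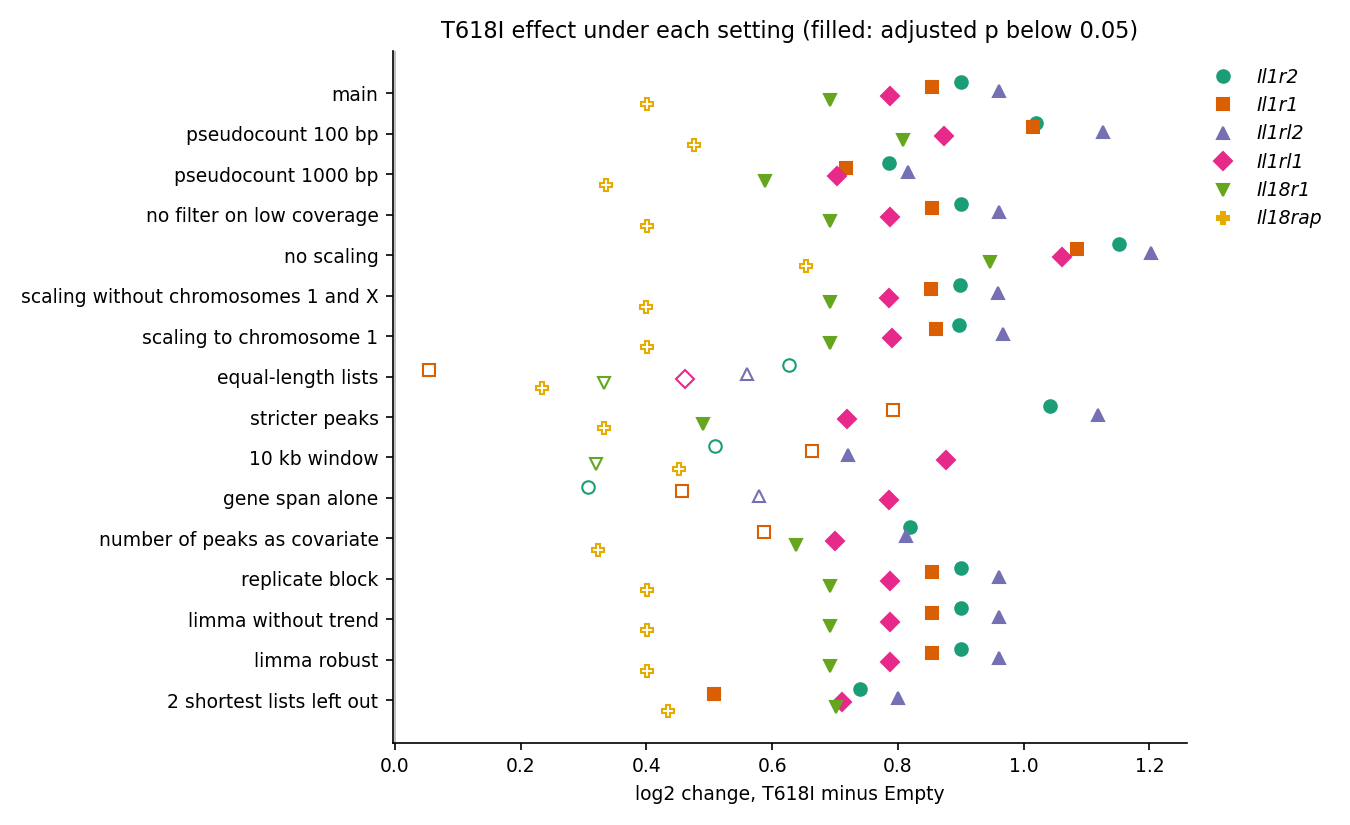
T618I effect (log2, T618I minus Empty) of each member under each processing setting, 1 row per setting. Filled points had a limma adjusted p below 0.05. All points are above 0, and none is filled for the equal-length lists.

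Markers of neutrophil maturation moved with the same contrast. Of 10 neutrophil and promyelocyte genes, 5 rose with T618I (S100a8 1.0, S100a9 1.04, Retnlg 1.0, Cd177 1.16 and Csf3r 0.49, log2), and 3 fell, the primary granule genes Mpo (-0.49), Prtn3 (-0.37) and Elane (-0.34). Of all tested genes 4.05% rose and 2.41% fell. Cd177 and Retnlg met the coverage minimum only through their T618I libraries, so the minimum itself favoured a rise for them. Cd177 averaged 0.29 kb in sgB2/Empty and 0.16 kb in sgNT/Empty libraries, and Retnlg 0.47 and 0.17 kb. The windows of S100a8 and S100a9 overlap, as do those of Prtn3 and Elane, so these changes are not independent. The covered length summed over that list was 39.3 to 42.1 kb in sgB2/T618I, 49.6 to 53.3 kb in sgNT/T618I, 40.0 to 44.1 kb in sgB2/Empty and 39.0 to 50.9 kb in sgNT/Empty libraries. In the mast cell and basophil list, relevant to Il1rl1, 1 of 5 tested genes rose (Hdc, histidine decarboxylase, 0.59), and the sum was 9.90 to 12.6 kb in sgB2/T618I, 10.2 to 10.6 kb in sgNT/T618I, 8.67 to 11.4 kb in sgB2/Empty and 7.88 to 9.60 kb in sgNT/Empty libraries. Promoter peaks at the mast cell genes Cpa3, Ms4a2 and Fcer1a were called in 1, 0 and 2 of 12 libraries, those at Gata2 and Mcpt8 in 12 and that at Hdc in 10. With the guide, 1 of 5 tested genes of this list rose, against 1.52% of all tested genes. So did 1 of 4 erythroid and megakaryocyte and 1 of 7 T, NK and innate lymphoid genes, and 0 of the other marker lists. Among the T, NK and innate lymphoid genes, only Cd247 had sgB2 and sgNT libraries without overlap. Cd247 lies on chromosome 1, where 16.3% of tested genes rose with the guide, so the genome-wide 1.52% is too low a comparison for it. In the other lists with T618I, Ccr2 rose (1 of 4 monocyte genes, 0.47), Ebf1 fell (1 of 4 B cell genes, -0.64), and 0 of 7 T, NK and innate lymphoid and 0 of 4 erythroid and megakaryocyte genes passed. The lymphoid gene Il7r was below the coverage minimum and untested. It had 0.71 to 1.34 kb in sgB2/T618I, 0.31 to 0.75 kb in sgNT/T618I, 0 to 0.24 kb in sgB2/Empty and 0 to 0.16 kb in sgNT/Empty libraries. T618I and Empty libraries did not overlap, but the Empty values lie at or near 0. The share of genes below the minimum with such a separation was not counted. The part of cell maturity in the cluster's change was not tested, and more cells with an open site cannot be told apart from a more open site per cell.

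With the Asxl1 guide, 2 of 6 members rose and 0 fell, against 1.52% of all tested genes that rose, 1.3% that fell, and 16.3% of those on chromosome 1 that rose. Il1rl1 rose by 0.49 ± 0.10 (SE, log2; limma adjusted p = 0.0156) and Il18r1 by 0.50 ± 0.11 (limma adjusted p = 0.0214). Il1r1 (0.37 ± 0.20), Il1rl2 (0.31 ± 0.13), Il18rap (0.31 ± 0.13) and Il1r2 (0.07 ± 0.14) did not pass. Within Empty cells and within T618I cells the guide moved 0 members past the test, against 0.229% and 0.164% of tested genes that rose. Of the 945 tested genes on chromosome 1, 18 rose with the guide in Empty cells and 12 in T618I cells. In Empty cells 3 members had an unadjusted p below 0.05 (limma), against 11.8% of tested genes, and in T618I cells 2, against 10.1%. These unadjusted shares are genome-wide, and those of chromosome 1 genes alone were not counted.

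All of chromosome 1 shifted in sgB2 libraries. It held 9.25 ± 0.54% of covered length in sgB2 and 6.64 ± 0.15% in sgNT libraries (SD, n = 6 each), a difference of 2.61 percentage points (exact permutation within vector, two-sided, p = 0.005, the smallest possible). The median guide effect of the 945 tested chromosome 1 genes was 0.28 (log2), against -0.01 for genes elsewhere, and it was above 0 in each of the 20 bins of 10 Mb along the chromosome, with 0.32 over the 26 genes in the bin that starts at 40 Mb. When libraries were scaled to equal covered length on chromosome 1, the guide effect was 0.07 for Il1rl1 and 0.11 for Il18r1 and neither passed, that of Il1r1 was -0.02, of Il1rl2 -0.08 and of Il18rap -0.06, and that of Il1r2 was -0.34 and passed as lower (limma adjusted p = 0.0432), as did 69.2% of all tested genes and 17.1% of those on chromosome 1. That scaling put the median of chromosome 1 genes at -0.09 and of all genes at -0.38. The T618I effect kept 5 rising members under it.

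**Figure D4:**
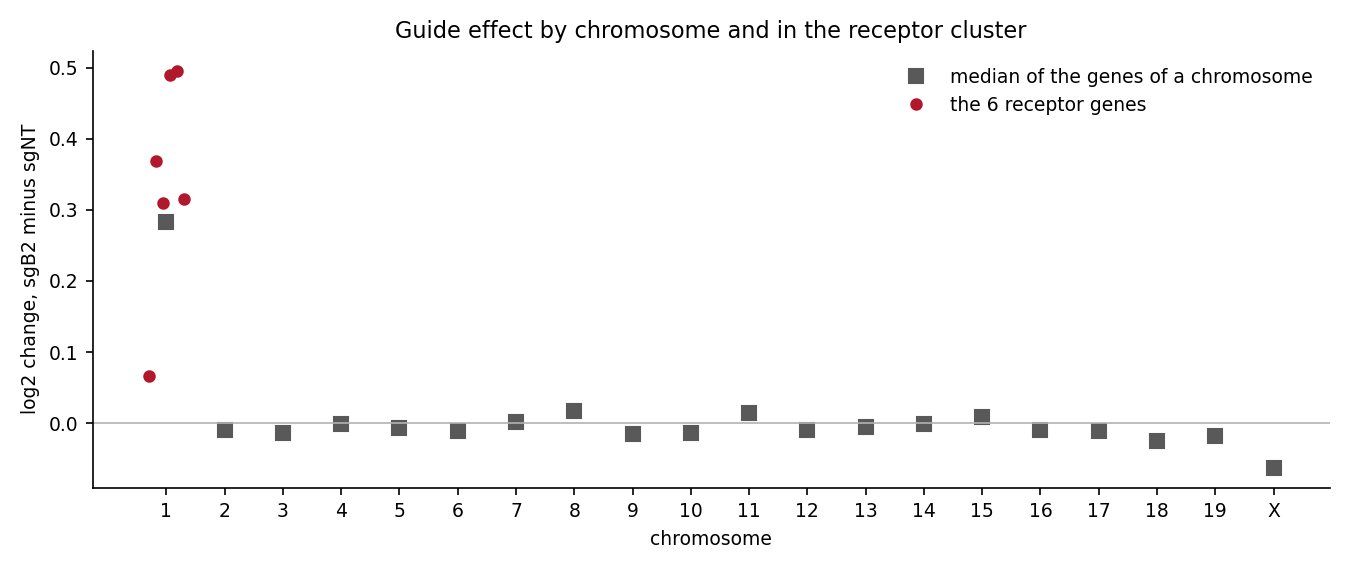
Guide effect (log2, sgB2 minus sgNT). Squares are the medians of the tested genes of each chromosome and red points the 6 receptor genes. The chromosome 1 median of 0.28 stands apart from the other chromosomes, and 5 of the 6 receptor genes lie at 0.31 to 0.50.

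**Figure D5:**
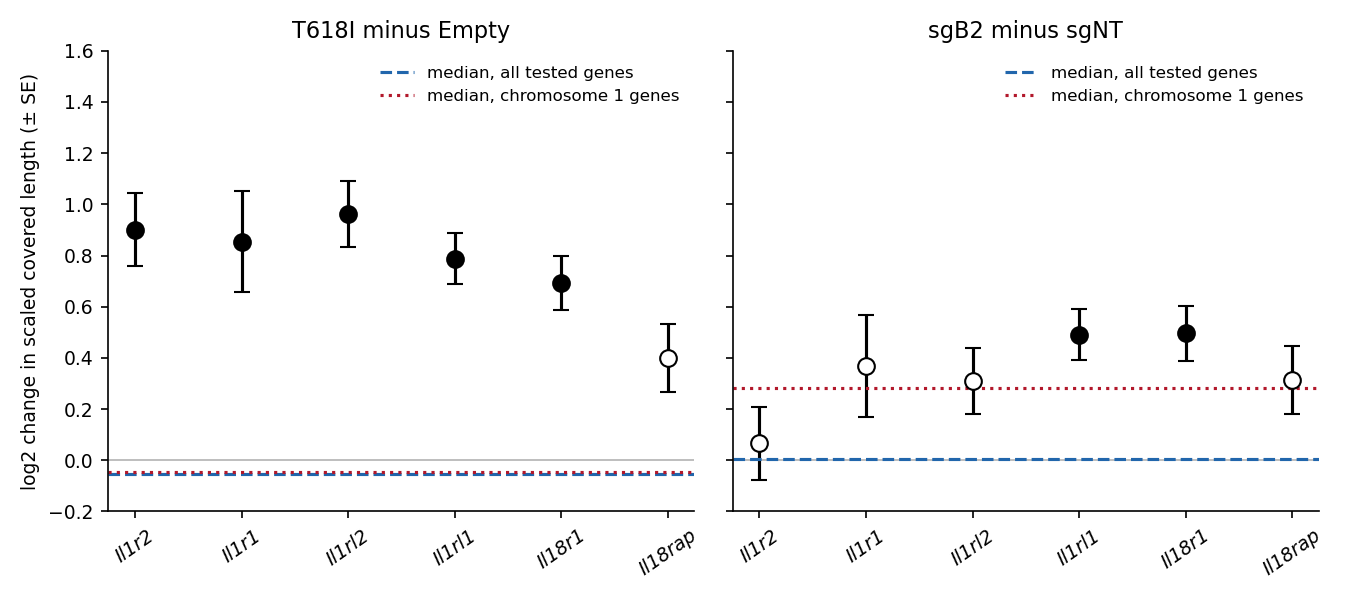
Effects (log2 ± SE) of T618I (left) and of the guide (right) on each member. Filled points had a limma adjusted p below 0.05, the dashed line is the median of all tested genes and the dotted line that of chromosome 1 genes. Members stand above both lines for T618I and, apart from Il1r2, near or above the chromosome 1 line for the guide.

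Inside Il1rl1 and in T618I cells, 2 regions had a peak in all 3 sgB2 and no sgNT library, as 0.878% of all regions did. They were chr1:40418476-40418831, with peaks of 286, 353 and 345 bp in sgB2/T618I, and chr1:40424015-40424485, with peaks of 284, 376 and 397 bp. The first also had a peak in 1 sgB2/Empty library, and the second in none. In Empty cells 0 of 37 regions met this rule, against 0.701% of all regions. In equal-length lists 0 regions of the cluster met it in T618I cells and 1 in Empty cells, out of 465 and 541 in the genome. Pooled over both vectors, 17 of 37 regions had a peak in more sgB2 than sgNT libraries (45.9%, against 19.1% of all regions). Another 9 had one in fewer (24.3%, against 30.3%) and 11 in as many. The shares of all regions in this paragraph are genome-wide. Chromosome 1 as a whole held a larger share of covered length in sgB2 libraries, and shares among its regions alone were not counted.

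Of the genes beside the cluster, Map4k4, a kinase gene upstream of Il1r2, rose with T618I by 0.93 ± 0.10 (SE, log2; limma adjusted p = 4.25e-05). Its window shares the stretch upstream of Il1r2, where T618I libraries averaged 2.99 kb and Empty libraries 1.11 kb, but in the rest of its window they averaged 4.04 and 2.35 kb. Unlike the members, it also passed in equal-length lists (0.98), but in its gene span alone, where Il1rl1 passed, it did not (0.44; limma adjusted p = 0.156). On the other side, Slc9a2 (0.21), Mfsd9 (-0.07) and Tmem182 (-0.30) did not pass, and Slc9a4, the nearest, was below the coverage minimum. The guide effect was 0.07 for Map4k4, 0.50 for Slc9a2, 0.32 for Mfsd9 and 0.36 for Tmem182, and none passed.

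The rest of the pathway, the cytokines, antagonists, adaptors and kinases that act with these receptors, was described by counts. Of 34 tested genes, 2 rose and 0 fell with T618I, against 4.05% and 2.41% of all tested genes, with a median change of -0.06 (log2), near the -0.05 of all tested genes. The risers were Casp1, the protease that matures interleukins 1 and 18 (1.34 ± 0.16, SE, log2; limma adjusted p = 0.000148), and Sigirr, an inhibitory receptor of the family (0.45 ± 0.11; limma adjusted p = 0.0264). Casp1 averaged 0 kb in sgB2/Empty and 0.27 kb in sgNT/Empty libraries. It met the coverage minimum only through T618I libraries, so the minimum itself favoured its rise. With the guide 0 of 34 passed (limma), with 8 at an unadjusted p below 0.05, against 15.7% of all tested genes. The shared accessory receptor Il1rap had a promoter peak in 12 of 12 libraries, whereas of the 7 cytokine genes with a promoter in the table Il1a, Il1b, Il33, Il1f8 and Il1f10 had one in 0 and Il18 in 1. The seventh, Il1f9, which encodes an interleukin 36 ligand of Il1rl2, had one in 1 sgB2/T618I, 3 sgNT/T618I, 0 sgB2/Empty and 0 sgNT/Empty libraries.

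Over the 12 libraries, log2 covered length was most alike between Il1rl2 and Il1rl1 (Pearson's r = 0.95) and least between Il1r2 and Il18rap (0.49), values that overlapping windows raise. Among genes over 1 Mb away, the 3 most like each member were Il4ra (0.94), Pkp3 (0.93) and Sik1 (0.93) for Il1r2, Stx3 (0.94), Ccl9 (0.93) and Ms4a19 (0.92) for Il1r1, and Nqo1 (0.92), Il6 (0.92) and Acvrl1 (0.92) for Il1rl2. They were Vmn2r97 (0.93), Slamf1 (0.93) and Nabp1 (0.92) for Il1rl1, Eno4 (0.92), Nabp1 (0.92) and Vmn2r97 (0.91) for Il18r1, and 4933424G06Rik (0.89), Coa5 (0.87) and Slc22a23 (0.85) for Il18rap. For Il1rl1, Il18r1 and Il18rap, some of these genes lie on chromosome 1 (Slamf1, Nabp1, 4933424G06Rik and Coa5). The libraries share group and list length, so these values describe likeness only.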

How the data were processed

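Open chromatin was measured by ATAC-seq in 12 libraries, and 1 list of broad peaks per library was used. Per the submitters' processing notes, the authors used BWA 0.7.17, SAMtools 1.9, bedtools 2.30, deepTools 3.5 and MACS2 2.2.7.1 on build mm10. The deposited score was not used. Neither was the deposited fold, a ratio over background. From the deposited −log10 p and −log10 q, ranks within 1 list and a stricter threshold were taken, nothing else. Calling depends on depth, which is unknown.

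Genes came from a protein-coding table of GRCm38.p6, and promoters from RefSeq on that assembly, in which all 6 members matched 10 starts on the plus strand. Covered length in the gene span ± 50 kb was scaled to equal total covered length, and log2 of it plus 500 bp was fitted with limma 3.58.1 (R 4.3.3, trend, 4 group means, Benjamini-Hochberg per comparison). Regions merged peaks overlapping by at least 1 bp. Other steps used python 3.11.15, numpy 2.4.6, pandas 2.3.3 and matplotlib 3.10.9. Scripts were tested on simulated data.

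Named were the 6 members, the genes beside them, pathway genes that passed (up to 4 per direction and factor), regions at gene ends or promoters, past the exact test or in all of one group and none of the other, and the 3 genes most like each member. Regions upstream of Il1r2, between Il18r1 and Il18rap and near Il1rl2 that were in all 12 libraries or differed in width were chosen after their values were seen. Members and lists were chosen with earlier results of these data known. Of 41 pathway names 37 were in the table and 34 passed the coverage minimum; both older and newer names of the interleukin 36 genes were listed. The fit without the 2 shortest lists was chosen after seeing the data.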

Additional observations from a re-analysis of the deposited data

How the results depend on the processing

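Of the 5 members that rose with T618I, all kept the call under both other pseudocounts, no coverage filter, no scaling, scaling to chromosome 1 or without chromosomes 1 and X, limma without trend or robust, and without the 2 shortest lists. Counts are of members that rose, and values are log2 changes. In equal-length lists 0 rose with T618I (Il1r2 0.63, Il1r1 0.054, Il1rl2 0.56, Il1rl1 0.46, Il18r1 0.33), 0 with the guide (Il1rl1 0.54, Il18r1 0.37) and 0 with T618I in either guide. Its construction shows that it drops weak peaks of longer lists. In the 10 kb window 2 rose with T618I (not Il1r2 0.51, Il1r1 0.66, Il18r1 0.32), 0 with the guide (Il1rl1 0.61, Il18r1 0.40, Il18rap -0.0021), and with T618I 0 in sgNT and 1 in sgB2 cells. In gene spans alone, where Il18r1 and Il18rap fell below the coverage minimum, 1 rose with T618I (not Il1r2 0.31, Il1r1 0.46, Il1rl2 0.58), 1 with the guide (Il1r2 -0.018) and 0 with T618I in either guide. With stricter peaks Il1r1 (0.79) did not pass for T618I, 0 rose with the guide (Il1rl1 0.41, Il18r1 0.35, Il1r2 -0.041), and with T618I 1 in each guide. Adjusted for peak number, Il1r1 (0.59) did not pass, nor did Il1r2 in sgB2 cells (0.99) and Il18r1 in sgNT cells (0.57). The T618I call of Il18r1 in sgNT cells was lost in 11 of the 14 alternatives that tested it with all or 10 libraries, at 0.22 to 0.87, and that of Il1r2 in sgB2 cells in 5 of 15. Without scaling 0 rose with the guide (Il1rl1 0.32, Il18r1 0.35, Il1r2 -0.10), and 0 with T618I in either guide, while the all-gene median moved to 0.20 for T618I and -0.14 for the guide. Scaled to chromosome 1, 0 rose and 1 fell with the guide (Il1r2 -0.34, Il1r1 -0.022, Il1rl2 -0.077, Il1rl1 0.073, Il18r1 0.11, Il18rap -0.064) and 1 fell in Empty cells. Of 15303 tested genes, 10597 fell with the guide under that scaling, and 7042 with the guide in Empty cells. Without the 2 shortest lists the guide effect of Il1r1 passed (0.41) and that of Il1r2 was -0.083. The cause of these changes was not tested.

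Without 1 library at a time, the number of members that rose with the guide was 1 to 2, with Il18r1 (0.44 to 0.57) lost without sgNT/T618I replicate 1 or 2, and with T618I in sgB2 cells 0 to 4. The guide effect of Il1r2 was -0.089 to 0.15, negative without sgNT/Empty replicate 1.

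Changes of sign were otherwise seen only in values that did not pass. In equal-length lists they were T618I in sgB2 cells for Il1r1 (-0.31), the guide in Empty cells for Il1r2 (0.21) and the interaction of Il1rl2 (0.27), Il1rl1 (0.12) and Il18rap (0.019). In the 10 kb window they were the guide in T618I cells for Il18rap (-0.056) and the interaction of Il1r1 (0.088), Il1rl2 (0.29) and Il18r1 (-0.066). The interaction also changed sign in gene spans for Il1rl2 (0.14) and Il1rl1 (0.27), with stricter peaks for Il18r1 (-0.024), and without the 2 shortest lists for Il1rl2 (0.044) and Il1rl1 (0.0094). Scaled to chromosome 1, the guide effect in Empty cells was -0.0088 for Il18rap, and in T618I cells -0.16 for Il1r2, -0.046 for Il1r1, -0.17 for Il1rl2 and -0.12 for Il18rap. Without 1 library, the guide effect in Empty cells was -0.42 to 0.055 for Il1r2, and the interaction -0.45 to 0.25 for Il1r1, -0.35 to 0.095 for Il1rl2, -0.27 to 0.0013 for Il1rl1 and -0.28 to 0.080 for Il18rap.

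Replicate numbers were shared by the groups, but residuals of same-numbered libraries correlated at -0.16 to 0.22, with a median of 0.01, so the numbers were not taken to pair them. With the replicate block 5 members rose with T618I and 2 with the guide, as without it, and 645 genes rose with T618I in place of 619. Counts of peaks and lengths are limited by the unknown depth of each library.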
